A study of Homo sapiens with 6 samples.

Results

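The receptors for IGF-1 and insulin, their docking proteins and the PI3-kinase and AKT genes behind them were taken as 9 genes: IGF1R, INSR, IRS1, IRS2, PIK3R1, PIK3R2, PIK3R3, PIK3CA and AKT1. They were chosen by name, with earlier results of these data known, and every probe set annotated to 1 of them alone was taken. A probe set is a group of short probes on the array that together measure a transcript. Of the 9 genes, 7 were measured by 21 probe sets, out of 19775 genes with a probe set of their own and 54613 probe sets tested. IGF1R and INSR had 5 probe sets each, IRS1 and PIK3R1 had 3 each, IRS2 and PIK3R3 had 2 each and AKT1 had 1. PIK3R2 and PIK3CA had no probe set annotated to them alone and were not analysed here. Probe sets annotated to several genes were not used.

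The cells were IKPRAB-36, Ishikawa endometrial cancer cells that carry both progesterone receptor isoforms (PRA and PRB) by stable transfection. Cells of the MPA group received 1 nM MPA (medroxyprogesterone acetate, a synthetic progestin) for 48 h, and control cells were kept for 48 h without it. Both groups were grown in the same medium with charcoal-stripped serum and the antibiotics hygromycin and neomycin. Each group was read on 3 Affymetrix U133 Plus 2.0 arrays of total RNA (MPA 1 to 3 and control 1 to 3). The receptors come from a transfection, in 1 cell line, and no source used here gives the promoter that drives them. Each array measured a whole culture, so that fewer cells expressing a gene and less RNA per cell cannot be told apart. The values are log2 signals, on which a difference of 1 means that the signal doubles. It is not stated that the 3 arrays of a group came from separate cultures, and the spread behind each p-value may therefore be no more than technical variation between arrays.

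IGF1R and INSR are tyrosine kinases at the cell surface that pass their signal to the docking proteins IRS1 and IRS2. These recruit PI3-kinase, which consists of a catalytic subunit such as that of PIK3CA and a regulatory subunit from PIK3R1, PIK3R2 or PIK3R3, and the lipid it makes brings AKT1 to the membrane, where it is activated. In the endometrium the IGF system is under control of steroid hormones, and PI3-kinase signaling is often altered in endometrial cancer.

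Array medians lay between 5.16 and 5.28, and arrays of a group correlated at 0.987 to 0.997. MPA 3 stood apart from the other arrays: its 18S ribosomal RNA probe set read 7.06, against 8.09 to 9.44 on the other 5, and its poly-A control probe sets averaged 6.19, against 7.50 to 8.23. Of 10 measured epithelial and endometrial markers, 8 were above the array median on all 6 arrays, with a list mean of 9.19 to 9.37 on MPA arrays and 9.30 to 9.46 on control arrays; SOX17 was below the median on all of them and PAX2 on 5. Of 6 leukocyte and endothelial markers, 4 (PTPRC, CD14, VWF and CDH5) were below the median on every array, and CD3E and PECAM1 were above it on all 6. Of 8 fibroblast markers, 4 (COL1A2, LUM, PDGFRA and PDGFRB) were below it on every array. The other 4 fibroblast markers, COL1A1 and COL3A1 among them, were above it. The mean of the fibroblast list was 5.65 to 5.85 on MPA arrays and 5.74 to 5.98 on control arrays. Counts at an unadjusted p under 0.05, here and below, have no share over all genes beside them and are descriptions only. Of the 24 marker genes 0 was called by limma, and 6 had an unadjusted p under 0.05. In these 6 all MPA arrays lay below all control arrays, with log2 fold changes of -0.54 for EPCAM (adjusted p = 0.0586), -0.76 for CDH1, -0.44 for PAX8, -0.38 for MSX1, -0.81 for COL1A1 and -0.53 for COL3A1, and their part in the results was not tested. In KRT8 all MPA arrays lay above all control arrays (log2 fold change 0.22). Over all genes, 16.9% had groups that did not overlap. The progesterone receptor gene PGR had 10.70 ± 0.33 in MPA cells and 10.22 ± 0.04 in control cells (SD, n = 3 each), and was not called (log2 fold change 0.48, adjusted p = 0.294 with limma). The progestin-responsive genes FKBP5 and TSC22D3 rose 11.8-fold and 5.84-fold. PDK4 rose too, to 9.57 ± 0.18 in MPA cells, against 3.99 ± 0.18 in control cells (SD, n = 3 each), where it was below the median of every control array, so that no exact fold can be given.

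The question addressed was whether, and in which of their probe sets, the receptor, docking and kinase genes differed after MPA. IGF1R and IRS2 rose with MPA and none of the other 5 measured genes was called by its brightest probe set, which is the one with the highest signal averaged over the 6 arrays. A difference was called at an adjusted p under 0.05 (limma, Benjamini-Hochberg over 54613 probe sets) and a log2 fold change of at least 0.32 in either direction. By this rule 2 of 7 genes were higher and 0 lower, where over all genes 2.9% were called, 1.74% higher and 1.16% lower. At an unadjusted p under 0.05, PIK3R1 was also higher and PIK3R3 lower. Of the 21 probe sets 4 were higher, 2 each of IGF1R and IRS2, and 2 were lower, 1 of IRS1 and 1 of PIK3R3; over all probe sets 2.03% were called, 1.21% higher and 0.813% lower. The median log2 fold change of the 7 genes was 0.08, with a range of -0.33 to 1.46, and that of all genes was 0.02. MPA and control arrays did not overlap in 11 of the 21 probe sets, 7 with MPA above and 4 with MPA below, where 15.4% of all probe sets did not overlap, 7.94% with MPA above and 7.43% with MPA below. By the brightest probe set it was 4 of the 7 genes (IGF1R, IRS2, PIK3R1 and PIK3R3), against 16.9% of all genes. Since the genes were chosen with earlier results of these data known, these shares are descriptions and not a test.

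**Figure D1:**
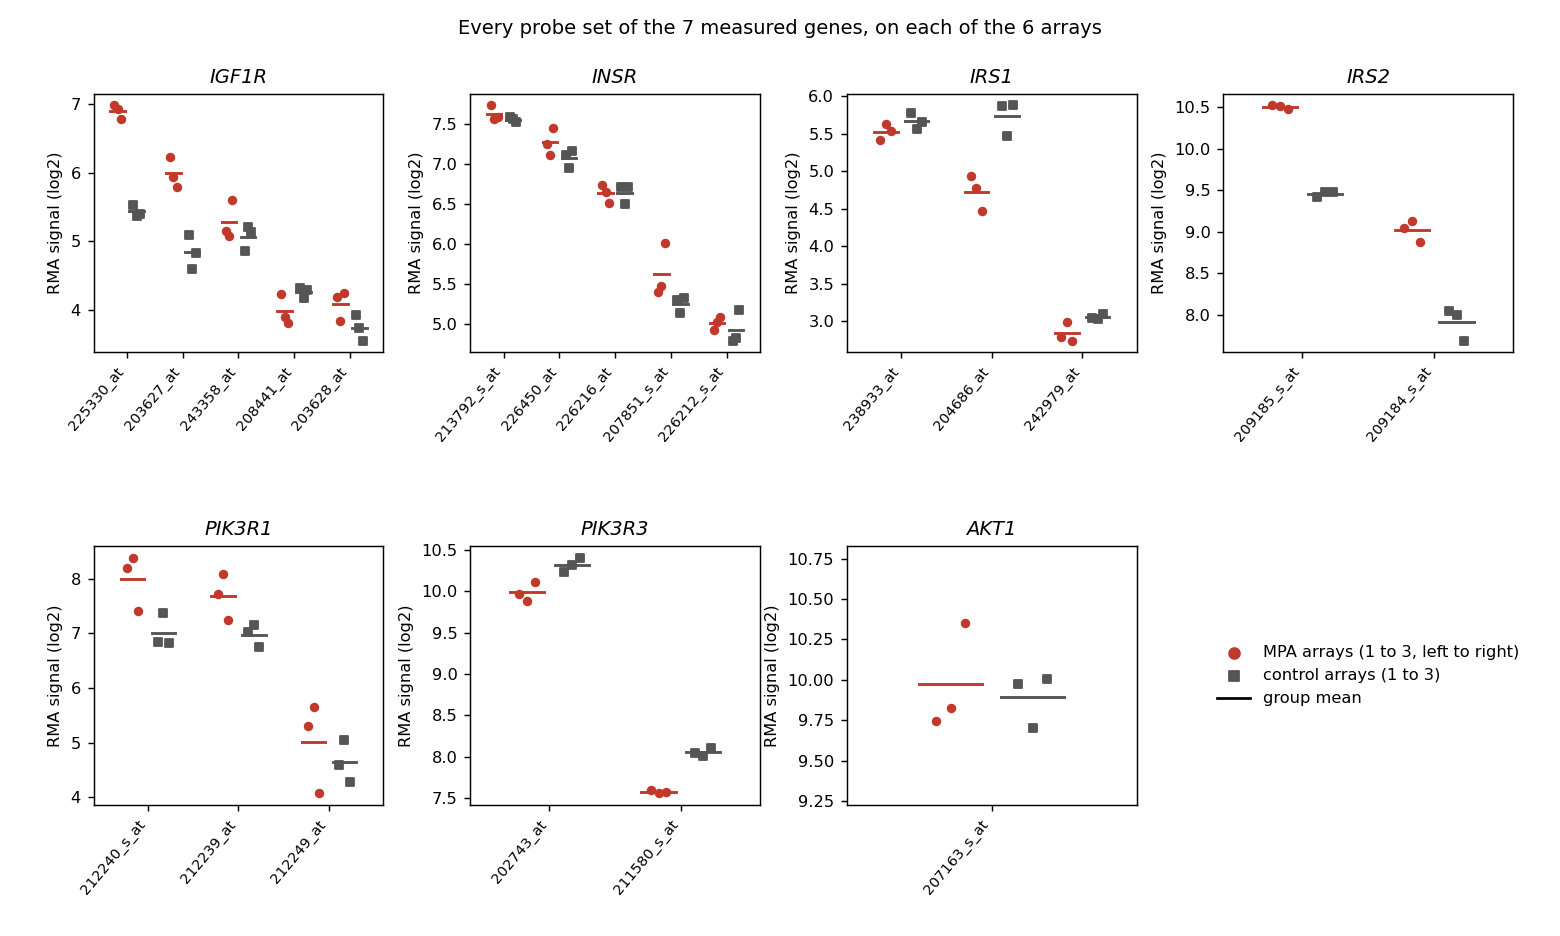
RMA signal (log2, vertical axis of each panel) of each probe set of the 7 measured genes on every array, with MPA arrays as red circles, control arrays as grey squares and group means as lines. MPA lies clear above control in 2 probe sets of IGF1R and both of IRS2, and 204686_at of IRS1 lies below; the 3 probe sets of PIK3R1 share 1 order of arrays within each group.

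IGF1R, the receptor of IGF-1 and IGF-2, was read most brightly by 225330_at. This probe set had 6.99, 6.93 and 6.79 on MPA arrays 1 to 3, against 5.53, 5.38 and 5.40 on control arrays 1 to 3. Every MPA array was above every control array, by far more than the arrays of a group differed, and in rank the probe set stood between the 52.9th and the 72.9th percentile of its array. The log2 fold change was 1.46 (SE 0.11, 95% interval 1.22 to 1.71), a 2.76-fold rise with an adjusted p of 0.000305 from limma. A second probe set, 203627_at, had 6.24, 5.94 and 5.79 on MPA arrays and 5.09, 4.59 and 4.82 on control arrays. Here, too, the groups did not overlap. On every control array this probe set was below the array median, so that no exact fold can be given. The rise was called by limma at a log2 fold change of 1.15 (95% interval 0.78 to 1.53, adjusted p = 0.00876). This call was lost without control 3 (adjusted p = 0.0577), whereas that of 225330_at held without each of the 6 arrays (adjusted p between 0.000781 and 0.00443).

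The remaining 3 probe sets of IGF1R were not called. The probe set 243358_at had 5.14, 5.07 and 5.61 in MPA cells and 4.85, 5.21 and 5.13 in control cells, with overlapping groups, MPA 3 as the highest array and a log2 fold change of 0.21 (95% interval -0.17 to 0.59). Both others were below the array median on all 6 arrays. Of these, 203628_at had 4.18, 3.83 and 4.25 in MPA cells and 3.92, 3.73 and 3.55 in control cells, for a mean difference of 0.35 (adjusted p = 0.454). The other, 208441_at, had 4.22, 3.89 and 3.80 in MPA cells and 4.31, 4.16 and 4.28 in control cells, for a mean difference of -0.28 (adjusted p = 0.536), and was the 1 probe set of IGF1R below 0.

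Differences between probe sets of 1 gene were tested directly, as the change of the brightest minus that of another, with limma over 21316 such pairs, of which 0.873% were called. For IGF1R the change of 225330_at exceeded that of 208441_at by 1.75 (95% interval 1.47 to 2.02, adjusted p = 0.000585), that of 243358_at by 1.26 (adjusted p = 0.0456) and that of 203628_at by 1.11 (adjusted p = 0.0214). Since 208441_at and 203628_at were below the median of every array, the differences from these 2 rest on low signals. The signal of 243358_at was low too, above the array median on only 2 of the 6 arrays. The excess of 225330_at over 203627_at was 0.31 (95% interval -0.0036 to 0.62, adjusted p = 0.532), which was not called. The difference from 208441_at held without each array in turn, and the other 2 called differences held without MPA 3 alone, with adjusted p-values of 0.0599 to 0.112 for 203628_at and 0.0753 to 0.237 for 243358_at when any other array was left out. With all 5 probe sets averaged, IGF1R was higher by 0.58 (adjusted p = 0.0142), and the median over its probe sets was 0.35. Where on the IGF1R transcripts each probe set lies was not known from the sources.

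INSR, the insulin receptor, was not called by any of its 5 probe sets, of which 0 had an unadjusted p under 0.05 in limma. By SAM, the test named in the study's methods and recoded here, 0 was called. The brightest, 213792_s_at, had 7.73, 7.55 and 7.58 on MPA arrays against 7.58, 7.55 and 7.52 on control arrays. The groups overlapped and the log2 fold change was 0.07 (95% interval -0.16 to 0.30, adjusted p = 0.921), an interval in which the changes of neither called IGF1R probe set lie. The other probe sets of INSR ranged between -0.01 and 0.38, with no called difference between any of them and the brightest (adjusted p between 0.690 and 0.988). Only 207851_s_at had all MPA arrays above all control arrays, with 5.39, 5.47 and 6.005 in MPA cells and 5.29, 5.13 and 5.31 in control cells. MPA 3 was its highest array, the mean difference was 0.38 and it was not called (adjusted p = 0.496).

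The signal of IGF1R relative to INSR was compared on each array by their brightest probe sets. This log2 difference was -0.79 to -0.62 on MPA arrays and -2.18 to -2.05 on control arrays, so that the groups did not overlap, and it was higher with MPA by 1.40. The exact permutation test gave p = 0.1 (two-sided), the smallest that 3 arrays against 3 allow, also after adjustment over the 3 pairs of related genes compared. Only the shift of such a difference between groups can be read, since 2 probe sets do not share a scale.

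IRS2, a docking protein of both receptors, rose in both of its probe sets. The brightest, 209185_s_at, had 10.52, 10.52 and 10.48 on MPA arrays, against 9.42, 9.48 and 9.48 on control arrays. These arrays were closer together within each group than those of any other called probe set of IGF1R or IRS2, with 10.51 ± 0.02 in MPA cells and 9.46 ± 0.04 in control cells (SD, n = 3 each). The log2 fold change was 1.05 (SE 0.09, 95% interval 0.83 to 1.27, adjusted p = 0.000837). In 209184_s_at the values were 9.04, 9.13 and 8.88 with MPA and 8.04, 8.002 and 7.69 in controls, a 2.15-fold rise (log2 fold change 1.11, 95% interval 0.81 to 1.40, adjusted p = 0.00355). The lowest MPA array was thus above the highest control array by more than the range within either group. The changes of the 2 probe sets differed by -0.06 (95% interval -0.38 to 0.27, adjusted p = 0.948). Both were called without each of the 6 arrays in turn, with adjusted p-values up to 0.0106 and 0.0297.

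The 3 probe sets of IRS1, the other docking protein, all had log2 fold changes below 0, and 1 of them was called lower. The brightest, 238933_at, had 5.42, 5.63 and 5.53 in MPA cells and 5.77, 5.57 and 5.65 in control cells. The groups overlapped at a log2 fold change of -0.14 (95% interval -0.39 to 0.12, adjusted p = 0.808). In 204686_at the values were 4.93, 4.77 and 4.47 on MPA arrays and 5.87, 5.47 and 5.88 on control arrays. All MPA arrays lay below all control arrays there, and the fall was called at a log2 fold change of -1.01 (SE 0.16, 95% interval -1.38 to -0.64, adjusted p = 0.0159). On the MPA arrays this probe set was below the array median. The call was lost without MPA 2 (adjusted p = 0.0524), without control 1 (0.0904) and without control 3 (0.101), and when limma tested against the fold minimum (0.111). The change of 238933_at exceeded that of 204686_at by 0.88 (95% interval 0.49 to 1.27), which was not called (adjusted p = 0.0736). The third probe set, 242979_at, was below the median on every array and had a mean difference, MPA minus control, of -0.22 on the log2 scale (adjusted p = 0.572). With the 3 averaged, the log2 fold change of IRS1 was -0.46 (adjusted p = 0.0602).

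IRS2 relative to IRS1, by their brightest probe sets, differed by 4.88 to 5.11 on MPA arrays and 3.65 to 3.91 on control arrays. The groups did not overlap and the difference was higher with MPA by 1.19 (exact permutation test, two-sided p = 0.1, the smallest possible).

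IGF1R and IRS2 rose together, and the 250 bases before their RefSeq starts (GRCh38.p14) are printed here, 5′ to 3′ in the direction of the gene, to show what the upstream sequences of the pair hold. That of IGF1R is chr15:98648289-98648538 on the plus strand and that of IRS2 is chr13:109786584-109786833 on the minus strand. Capitals mark GC boxes, the letters GGGCGG on either strand, which the general factor Sp1 binds.
IGF1R: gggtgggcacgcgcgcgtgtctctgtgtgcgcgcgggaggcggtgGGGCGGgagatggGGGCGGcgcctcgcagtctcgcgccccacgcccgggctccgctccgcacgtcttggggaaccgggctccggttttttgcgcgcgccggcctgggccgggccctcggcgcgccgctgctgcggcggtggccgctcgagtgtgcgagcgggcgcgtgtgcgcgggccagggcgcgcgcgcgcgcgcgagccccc
IRS2: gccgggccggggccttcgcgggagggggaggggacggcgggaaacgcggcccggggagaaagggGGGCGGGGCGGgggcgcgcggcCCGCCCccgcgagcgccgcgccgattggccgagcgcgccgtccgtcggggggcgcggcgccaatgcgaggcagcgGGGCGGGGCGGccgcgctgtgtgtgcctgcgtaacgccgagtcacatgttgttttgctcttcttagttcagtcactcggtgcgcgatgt
Both were rich in G and C, with 81.2% for IGF1R (the 98.0th percentile of 35116 promoters) and 76.4% for IRS2 (the 92.5th percentile), against a median of 58%. This was not particular to the pair: the first promoters of INSR, IRS1, PIK3R1 and AKT1 had 78.4%, 80.8%, 81.6% and 83.2%. Those of PIK3R3, PIK3R2 and PIK3CA had 63.6%, 67.6% and 57.6%. GC boxes started at -205 and -192 bases from the start of IGF1R, and at -186, -181, -164, -89 and -84 for IRS2, where those at -186 and -181, and those at -89 and -84, overlap. GGGCGG was found in 42.6% of all promoters, and in 11 of the 18 promoters that RefSeq gives for the 9 genes. The first promoters of INSR and IRS1, neither of which was called higher, held 4 each.

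Neither promoter held AGAACA, the letters of 1 arm of the element that the progesterone and glucocorticoid receptors share, on either strand. AGAACA was found in 3 of the 18 promoters, at -225 in promoter 3 of PIK3R1, and at -181 and -15 in promoters 1 and 4 of PIK3R3, where 12.4% of all promoters held it. The last 2 windows overlap, so that the match is the same one. The full element, AGAACA and TGTTCT with 3 bases between them, was in none of the 18 and in 1 of all 35116. GTAAACA, a motif of FOXO factors, was in 1 of the 18, that of PIK3CA at -149, and in 2.98% of all. A match is a description of letters, and no match says only that these letters are not in this window.

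PIK3R1 encodes the main regulatory subunit of PI3-kinase, and its 3 probe sets had log2 fold changes above 0, none of them called. The brightest, 212240_s_at, had 8.19, 8.38 and 7.42 on MPA arrays 1 to 3, against 6.84, 7.37 and 6.82 on control arrays 1 to 3. MPA 3 exceeded control 2, the highest control, by little, while MPA 1 and MPA 2 were well above it. The means were 7.998 ± 0.51 in MPA cells and 7.01 ± 0.32 in control cells (SD, n = 3 each), a log2 fold change of 0.99 with a wide 95% interval of 0.40 to 1.58 (adjusted p = 0.137). In 212239_at the values were 7.73, 8.08 and 7.25 with MPA and 7.03, 7.15 and 6.75 in controls (log2 fold change 0.71, 95% interval 0.24 to 1.19, adjusted p = 0.195). In 212249_at the groups overlapped, with 5.31, 5.65 and 4.07 in MPA cells and 4.59, 5.05 and 4.28 in control cells (log2 fold change 0.37, 95% interval -0.49 to 1.24, adjusted p = 0.867).

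The arrays of PIK3R1 kept 1 order: in all 3 probe sets MPA 2 was the highest and MPA 3 the lowest of the MPA arrays, and control 2 was the highest control. The second principal component of all probe sets, with 35.7% of the variance, also had MPA 2 (35.9) and control 2 (36.1) at 1 end and MPA 3 (-44.9) at the other. Its part in the spread of PIK3R1 was not tested. Without MPA 3, the array that stood apart, PIK3R1 was called higher by 212240_s_at (log2 fold change 1.28, adjusted p = 0.0171) and by 212239_at (0.93, adjusted p = 0.0341), and when any other array was left out by neither, with adjusted p-values up to 0.475 and 0.628. SAM also called both with all 6 arrays. The change of 212240_s_at exceeded those of the other probe sets by 0.28 and 0.62, which was not called (adjusted p = 0.615 and 0.252).

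PIK3R3, which encodes another regulatory subunit, had log2 fold changes below 0 in both of its probe sets, and 1 was called. The brightest, 202743_at, had 9.96, 9.88 and 10.11 in MPA cells, against 10.23, 10.32 and 10.40 in control cells. The groups did not overlap, and the log2 fold change of -0.33 (95% interval -0.58 to -0.08) was not called (adjusted p = 0.283). In 211580_s_at the values were 7.60, 7.56 and 7.58 on MPA arrays and 8.04, 8.01 and 8.10 on control arrays. This fall of 0.47 on the log2 scale (SE 0.10, 95% interval -0.69 to -0.26, fold 0.72) was called at an adjusted p of 0.0470 and was lost without each of the 6 arrays (adjusted p between 0.0726 and 0.270) and with an intensity trend in the variance (0.0997). The changes of the 2 probe sets differed by 0.14 (adjusted p = 0.771).

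PIK3R1 relative to PIK3R3 was -2.69 to -1.50 on MPA arrays and -3.58 to -2.94 on control arrays, a difference higher with MPA by 1.32 (exact permutation test, two-sided p = 0.1, the smallest possible). The order of arrays seen in PIK3R1 was carried into this difference, with MPA 3 as the lowest MPA array. AKT1, the kinase downstream, had 9.75, 9.83 and 10.35 on MPA arrays and 9.97, 9.70 and 10.00 on control arrays. MPA 3 was the highest array and the other 2 MPA arrays lay within the range of the controls, at a log2 fold change of 0.08 (95% interval -0.32 to 0.48, adjusted p = 0.953). Without MPA 3 the log2 fold change of AKT1 was -0.11.

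**Figure D2:**
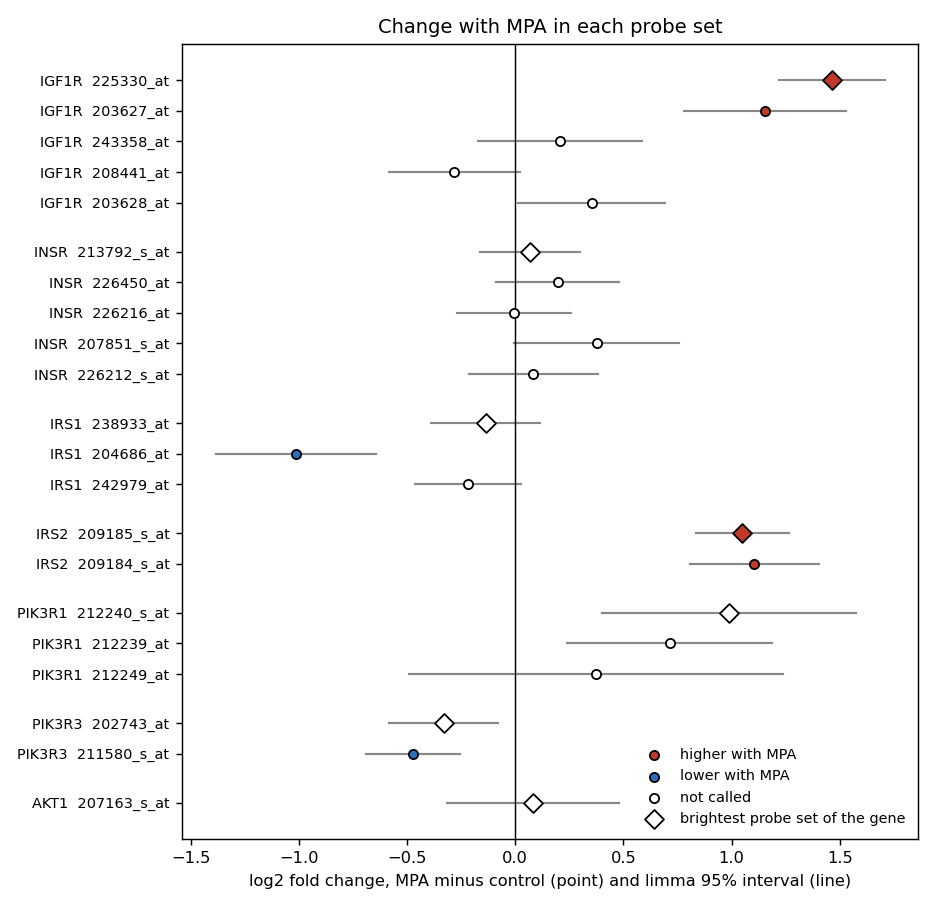
Log2 fold change of MPA over control (horizontal axis) with the 95% interval of limma for each of the 21 probe sets, grouped by gene; diamonds are the brightest probe set of a gene, red and blue are called higher and lower. IGF1R spreads between -0.28 and 1.46 over its 5 probe sets, both probe sets of IRS2 lie near 1.1, and the interval of 212240_s_at of PIK3R1 reaches from 0.40 to 1.58.

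Of the 6 genes with more than 1 probe set, 4 (IRS1, IRS2, PIK3R1 and PIK3R3) had all probe sets on 1 side of 0, and IGF1R and INSR had 1 of 5 below 0. Of all 14 pairs of probe sets tested, 3 were called, each of them in IGF1R. Leaving out arrays in turn separated the calls further: IGF1R by 225330_at and IRS2 by both probe sets stayed called in each case, PIK3R3 by 211580_s_at was lost in each case, and PIK3R1 was gained without MPA 3.

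**Figure D3:**
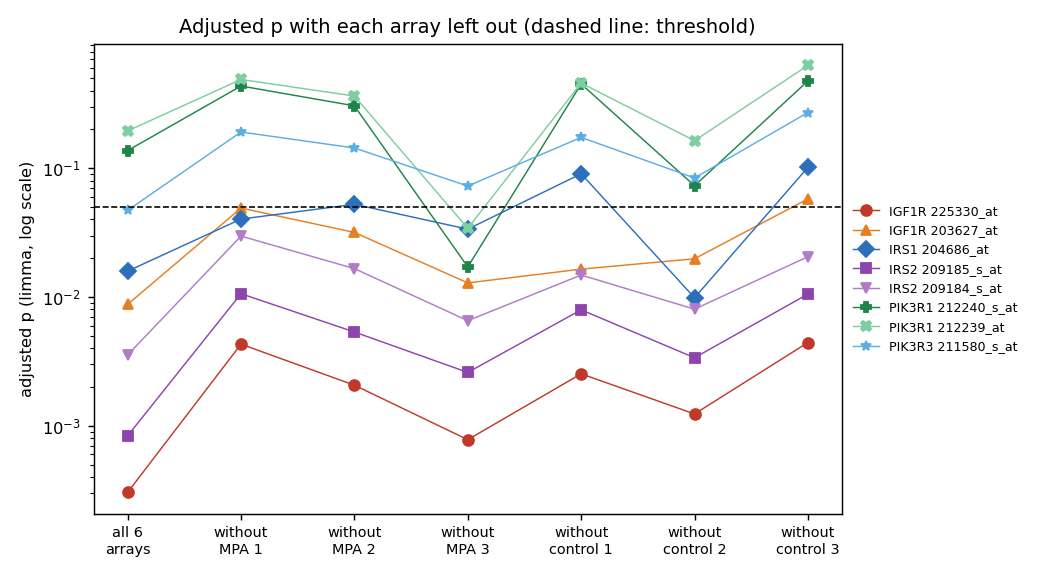
Adjusted p of limma (vertical axis, log scale) for 8 probe sets with all 6 arrays and with each array left out; the dashed line is the threshold of 0.05. IGF1R 225330_at and the 2 probe sets of IRS2 stay below the line throughout, both lines of PIK3R1 cross it only without MPA 3, and PIK3R3 211580_s_at lies above it in each of the 6 cases.

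The genes most like IGF1R were found by Pearson's r with 225330_at over the 6 arrays among 19774 other genes, as a description without a test. All points are the same 6 arrays, which fall into 2 groups, and 293 genes had an r over 0.95. ACTA2, the smooth muscle actin, was nearest (r = 0.999), with 9.54 ± 0.12 in MPA cells and 7.82 ± 0.10 in control cells (SD, n = 3 each). It was followed by TMX4 and PTPRM, a receptor tyrosine phosphatase (both 0.998), TCEAL3 (0.998) and TNFRSF10D, a decoy receptor of the death ligand TRAIL (0.997). Their log2 fold changes were 1.72 for ACTA2, 0.62 for TMX4, 1.48 for PTPRM, 1.00 for TCEAL3 and 0.58 for TNFRSF10D, so that the size of the rise differed among them. Among the other measured genes of the pathway, r with IGF1R was 0.993 for IRS2, 0.838 for PIK3R1, 0.568 for INSR, 0.135 for AKT1, -0.599 for IRS1 and -0.922 for PIK3R3.

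The wider pathway was taken as 5 lists of 106 genes, also chosen with earlier results of these data known, of which 97 were measured. Of these, 4 were higher (SGK1, DDIT4, PPP2CB and FOXO1), 4 were lower (DEPTOR, DOK5, INPP4B and ERRFI1) and 89 were not called, where 2.9% of all genes were called. Their median log2 fold change was 0.01. Of the 8 called genes, 7 came from the lists of brakes and of AKT and downstream genes, which also held 61 of the 97 measured genes.

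Of the IGF ligands and other receptors of the family, 4 of 5 were measured and none was called. Their log2 fold changes were 0.18 for IGF1, 0.13 for INS, 0.19 for IGF2R, which takes up IGF-2 without a kinase, and -0.10 for INSRR. The lowest adjusted p of limma was 0.822, no unadjusted p was under 0.05 (0 of 4) and SAM made 0 calls. INS and INSRR were below the median of every array, so that their values rest on low signals. In the list of other PI3-kinase subunits 0 of 11 measured genes was called by limma, in a range of -0.39 to 0.21 around a median of 0.01 (lowest adjusted p = 0.393). At an unadjusted p under 0.05 there was 1, and 0 was called by SAM. This list also held PIK3IP1, which interacts with PI3-kinase and is not a subunit. Of the 11, 3 (PIK3CG, PIK3R6 and PIK3C2G) were below the array median on every array.

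Of the other receptor adaptors, 21 of 25 were measured, 0 was higher and 1 lower, with a median of -0.02. At an unadjusted p under 0.05 in limma, 1 was higher (SOS2) and 3 were lower (DOK5, CBLB and SHC3), and SAM called 3. No share over all genes is set beside these counts, which are descriptions. DOK5, a docking protein of insulin receptor signaling, had 7.62, 7.48 and 7.63 on MPA arrays and 8.46, 8.02 and 8.40 on control arrays. All MPA arrays were below the controls (log2 fold change -0.72, adjusted p = 0.0372), and the call was kept without control 2 alone (adjusted p up to 0.202 without the others) and lost with its probe sets averaged (-0.57, 0.0685). SOS2, an exchange factor that activates RAS, had 9.62, 9.83 and 9.30 in MPA cells against 8.06, 8.98 and 8.31 in control cells. Control 2 was the highest control, as it was for PIK3R1, and the log2 fold change of 1.13 (95% interval 0.59 to 1.68) had an adjusted p of 0.0574. It was called without control 2 (0.00686), by SAM, without dim probe sets (0.0445) and when the variance prior followed intensity (0.0338), while the mean over its probe sets was 0.65 (0.0729). CBLB, a ubiquitin ligase of receptor kinases, had a mean difference, MPA minus control, of -0.68 on the log2 scale (adjusted p = 0.137); SAM called it lower, and the mean over its probe sets was -0.23 (0.407).

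Of the brakes on receptor and PI3-kinase signaling, 24 of 25 were measured, 1 was higher and 2 were lower, with a median of 0.03. PPP2CB, a catalytic subunit of the phosphatase PP2A, had 12.73 ± 0.07 in MPA cells and 11.79 ± 0.03 in control cells (SD, n = 3 each; log2 fold change 0.94, adjusted p = 0.00184). INPP4B, a phosphatase of inositol lipids, had 6.98 ± 0.07 in MPA cells and 7.68 ± 0.17 in control cells (log2 fold change -0.69, adjusted p = 0.0213). ERRFI1, known as an inhibitor of the EGF receptor family rather than of IGF1R, had 8.60 ± 0.10 in MPA cells and 9.19 ± 0.09 in control cells (log2 fold change -0.59, adjusted p = 0.0294). PPP2CB was called without each array in turn (adjusted p up to 0.0177), while INPP4B was lost without 4 of the 6 arrays (up to 0.113) and with its probe sets averaged (-0.44, adjusted p = 0.184), and ERRFI1 was lost without each of the 6 (0.0580 to 0.178). Among those not called, NEDD4, a ubiquitin ligase, had the largest value, with 7.67, 8.13 and 7.53 in MPA cells and 5.85, 7.13 and 6.46 in control cells. Its groups did not overlap, but the spread of the controls was wide (log2 fold change 1.30, adjusted p = 0.0858), and it was called without control 2 (adjusted p = 0.0120) and by SAM. ENPP1, a membrane enzyme that restrains the insulin receptor, had a mean difference, MPA minus control, of -0.57 on the log2 scale (adjusted p = 0.0771) and the AKT phosphatases PHLPP1 and PHLPP2 had 0.50 and 0.44 (adjusted p = 0.232 and 0.0923). SAM called ENPP1 and PHLPP2, while with probe sets averaged the values were -0.32 for ENPP1, 0.24 for PHLPP1 and 0.17 for PHLPP2.

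Of the AKT kinases and downstream genes, 37 of 39 were measured, 3 were higher and 1 lower, with a median of 0.02. SGK1, a kinase related to AKT that PI3-kinase also activates, had 10.45, 10.51 and 10.53 on MPA arrays and 6.43, 6.70 and 6.61 on control arrays, a gap between the groups far wider than their spread (log2 fold change 3.92). DDIT4 and DEPTOR encode inhibitors of mTOR, the kinase that AKT signaling activates, and moved in opposite directions. DDIT4 had 12.26, 12.14 and 12.40 in MPA cells and 11.28, 10.93 and 11.35 in control cells (log2 fold change 1.09, 95% interval 0.77 to 1.40, adjusted p = 0.00550). DEPTOR had 9.29, 9.06 and 9.11 in MPA cells and 10.52, 10.48 and 10.64 in control cells (log2 fold change -1.39, 95% interval -1.65 to -1.14, adjusted p = 0.000457). In both genes no MPA array came near a control array. With all probe sets of DEPTOR averaged, the change was smaller, -0.74 (adjusted p = 0.0108), and still called.

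FOXO1, a transcription factor that AKT keeps out of the nucleus, had 8.21, 7.99 and 8.10 on MPA arrays and 7.27, 7.23 and 7.35 on control arrays (log2 fold change 0.82, 95% interval 0.58 to 1.06, adjusted p = 0.00556). SGK1, DDIT4, DEPTOR and FOXO1 were called without each array in turn, with adjusted p-values up to 0.0428; the call of FOXO1 was lost when limma tested against the fold minimum (adjusted p = 0.0734). TBC1D4, an AKT substrate in glucose uptake, had a mean difference, MPA minus control, of 0.56 on the log2 scale (adjusted p = 0.140), and SESN2, a stress-induced restraint on mTOR, had -0.54 (adjusted p = 0.210). SAM called TBC1D4 higher, and SESN2 was called lower without control 2 (adjusted p = 0.0384).

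**Figure D4:**
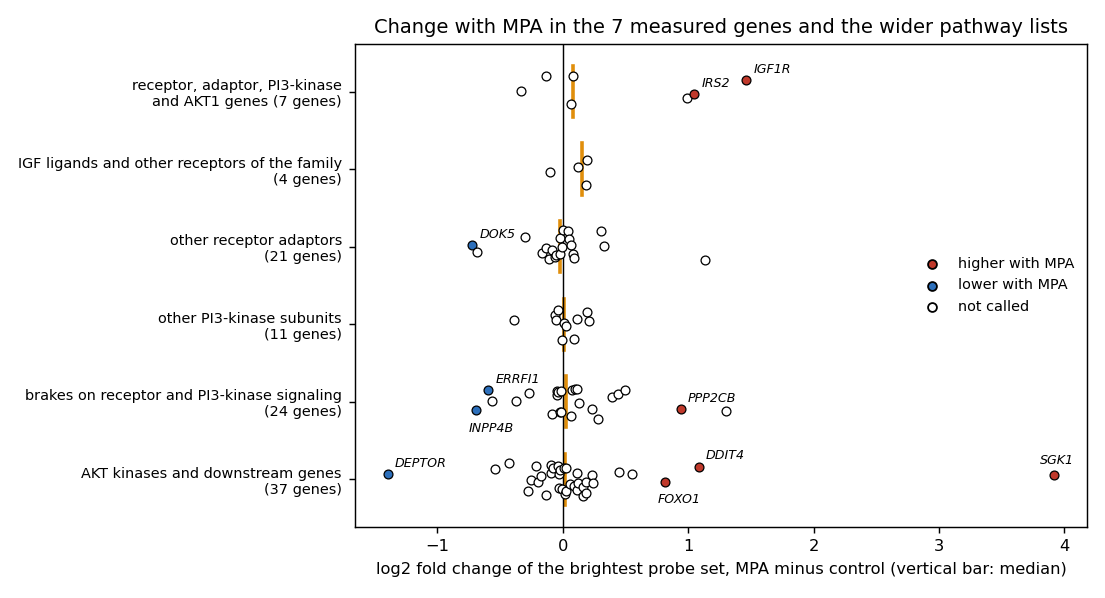
Log2 fold change of MPA over control (horizontal axis) by the brightest probe set of each gene, for the 7 measured genes and the 5 wider lists; each circle is a gene, red and blue are called higher and lower, and orange bars are medians. The medians lie between -0.02 and 0.15, and the 10 called genes stand away from them, with SGK1 at 3.92 and DEPTOR at -1.39 as the extremes.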

How the data were processed

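The deposited values are log2 signals that the authors made with RMA, in which background correction, quantile normalization and summarization over probes are already contained, and these were not repeated. No version of that software was found in the sources. All 6 arrays of IKPRAB-36 cells were used, 3 with MPA and 3 controls. Of 54675 probe sets, 62 Affymetrix controls were left out. Names came from the platform annotation, updated through Entrez identifiers: 41091 probe sets had 1 symbol, 1801 several and 11721 none.

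Limma 3.58.1 in R 4.3.3 tested MPA against control (two-sided, no covariate, Benjamini-Hochberg adjustment). The number of arrays limits the precision. Named were the 9 genes with every probe set, the called genes of each list (up to 4 per direction), those called only under another setting (up to 4 per list), the 5 genes most like IGF1R, and PGR, FKBP5, PDK4 and TSC22D3. The genes and lists were chosen with earlier results of these data known.

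The steps were tested on simulated data. Over 54613 probe sets, true log2 changes of 0.5, 1 and 2 were found by limma in 1 of 67, 39 of 67 and 59 of 66 probe sets, beside 1 false call, and by SAM in 24 of 67, 60 of 67 and 65 of 66, beside 92 false calls. Over 21316 pairs of probe sets, 73 of 100 differences of 1.5 were recovered. Alternatives were the replicate number as a block, SAM (delta 0.53, 20 relabelings), limma's treat test, an intensity trend, other fold minimums, a filter on dim probe sets, 2 other normalizations, each array left out, and the mean or median over the probe sets of a gene. SAM was recoded here with the delta that the study gives, so that its calls need not be those that the study lists. The study's expression data of patient samples were not analysed here.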

Additional observations from a re-analysis of the deposited data

How the results depend on the processing

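The 2 calls of IGF1R and IRS2 by their brightest probe sets held under each alternative run; PIK3R1 joined them (3 genes) with the replicate block, with SAM and without MPA 3. Of all probe sets, 1107 were called (663 higher and 444 lower), against 2033 with the replicate block, 2181 with SAM, 455 with treat, 510 at a 2-fold minimum, and 518 to 1190 with 1 array left out. Of the probe sets of the 9 genes, 6 were called, and 3 (without control 3) to 7 (without MPA 3) with 1 array left out. Of the wider lists 8 genes were called, 15 with the replicate block, 14 with SAM, 4 with treat, 3 at a 2-fold minimum and 5 to 10 with 1 array left out. SOS2, CBLB, NEDD4, ENPP1, TBC1D4, PHLPP1 and SESN2 were those gained with the replicate block, and the first 5 with PHLPP2 those gained with SAM. No source used here says whether arrays that share a replicate number were handled together, so that the block may or may not apply. Deviations from the group means of arrays that share a number correlated at -0.017, 0.52 and 0.33 for numbers 1 to 3. The value for number 2 was the highest of all MPA and control pairs, while MPA 3 correlated with control 1 at 0.35. With the replicate block the adjusted p of PIK3R1 212240_s_at was 0.00272 and that of IGF1R 225330_at was 2.88e-05. Values near 0 turned their sign with 1 array left out. AKT1 (0.08) was -0.11 without MPA 3 and -0.014 without control 2, in a range up to 0.20. The difference between INSR 213792_s_at and 226212_s_at (-0.01) was 0.028 without MPA 2, 0.041 without MPA 3, 0.067 without control 1 and 0.042 without control 2, in a range from -0.15, and that between the IRS2 probe sets (-0.06) was 0.067 without control 3, in a range from -0.14. The median over the probe sets of IGF1R was 0.35. Causes of these shifts were not tested, beyond the fewer arrays. Scaling by 9 housekeeping genes left 57.1% of calls higher, against 59.9%. Changes of 0.5 on the log2 scale were mostly missed in simulation, so that genes without a call may differ by that much. The simulation left 54413 of 54613 probe sets unchanged, while 1107 were called in the data. Simulated noise was drawn separately for each probe set and array, and thus lacked the second principal component seen in the data. The shares found and the false calls in simulation need not be those in the data. Probe sets below the array median are limited further by their low signal.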
